A study of Mus musculus with 7 samples.

Results

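Gene expression in mouse lung tumors that overexpress EZH2 was examined for 110 genes of detoxification enzymes, out of 22447 genes with a symbol in the deposited tables. The genes were chosen by symbol. The transferases were glutathione S-transferases (Gst classes a, m, p, t, o, k and z, 21 genes), microsomal glutathione S-transferases (Mgst, 3), UDP-glucuronosyltransferases (Ugt, 21) and sulfotransferases (Sult, 17). The others were flavin-containing monooxygenases (Fmo, 7), carboxylesterases (Ces, 17), aldehyde dehydrogenases (Aldh, 20), and the enzymes Nqo1, Hmox1, Gclc and Gclm. A pseudogene, Ces2d-ps, was left out. Total RNA was sequenced from 7 libraries in 3 groups: 3 lung tumors with the genotype EZH2 overexpression (OE tumors), 2 lungs labelled normal of the same genotype (OE normal lung) and 2 wild-type lungs (WT lung). EZH2 is the catalytic subunit of Polycomb repressive complex 2, which methylates histone H3. The sources used here do not give the promoter that drives EZH2, the strain or the age of the mice. Although the labelled source is lung tissue, the growth protocol speaks of nodules minced and put in culture, and which of these gave the tumor RNA is not stated.

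Detoxification is usually described in phases. Oxidizing and hydrolyzing enzymes such as flavin monooxygenases, carboxylesterases and aldehyde dehydrogenases alter a compound, and phase II enzymes then couple it to glutathione, glucuronic acid or sulfate so that transporters can export it. In the lung this work is known to be concentrated in club cells and alveolar type 2 cells. The transcription factor NRF2 (gene Nfe2l2), held back by KEAP1 until electrophiles or oxidants appear, drives many of these genes through antioxidant response elements, among them Nqo1, Hmox1, Gclc and Gclm.

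Values are FPKM (fragments per kilobase of transcript, scaled to the size of the library), which is a level per length and allows levels of different genes to be set side by side. A log2 difference is between group means of log2(FPKM + 1), a scale that understates the change of low genes, and its standard error (SE) and adjusted p come from limma with Benjamini-Hochberg adjustment over all 14057 genes tested. A gene rose or fell where the adjusted p was under 0.05. Of the 110 genes, 63 reached 1 FPKM in at least 2 of the 7 libraries and were tested. Nothing in the labels makes each replicate a separate animal, and the p-values then cover only the spread of these libraries, which may be technical. In bulk tissue, fewer cells of a type and less RNA per cell cannot be told apart.

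Tumor 1 stood apart from tumors 2 and 3. Across the 63 tested detoxification genes the log2 levels of tumors 2 and 3 correlated at r = 0.997, against 0.906 and 0.907 between either and tumor 1 (a description across genes, which are not independent replicates). Tumor 1 had the lowest depth, with the other libraries at 1.20 to 1.87 times as many reads judged from the spacing of low values. It also differed in Eif2s3y, a Y-linked gene (30.7 FPKM, with tumors 2 and 3 at 0.0327 and 0.0295), and in the surfactant gene Sftpc (35944 FPKM, with tumors 2 and 3 listed at 0, which can be a failed estimate). Counts are therefore given with and without tumor 1. Some genes were named for a wide span among tumors, and their p-values without tumor 1 follow in part from that choice. Ezh2 was at 8.48, 23.5 and 22.6 FPKM in OE tumors, 10.2 and 11.5 FPKM in OE normal lung and 3.72 and 2.58 FPKM in WT lung. Ezh2 rose in OE tumors against WT lung (log2 difference 2.10, limma adjusted p = 0.0118) and not against OE normal lung (0.58, limma adjusted p = 0.329), and OE normal lung did not pass against WT lung (1.53, limma adjusted p = 0.406). The call against WT lung was lost without either WT lung (limma adjusted p = 0.0515 without WT 1 and 0.0887 without WT 2), and without tumor 1 Ezh2 also rose against OE normal lung (limma adjusted p = 0.00219) and in OE normal lung against WT lung (0.0388). The same comparisons by exact permutation, 2-sided, gave p = 0.2, 0.4 and 0.333 in that order, where 0.1 is the smallest that 3 against 2 libraries allow and 0.333 the smallest for 2 against 2.

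Cell type markers also separated the groups. Over all genes tested 13.1% rose and 24.9% fell in OE tumors against OE normal lung, and 15.0% and 23.2% against WT lung. All 12 ciliated cell markers and all 12 endothelial markers fell in OE tumors against both normal groups, as did all 7 heart muscle markers. Summed FPKM of the ciliated markers was 11.9 to 23.3 in OE tumors, 412 to 479.7 in OE normal lung and 523 to 581 in WT lung. For the endothelial markers it was 133 to 177 in OE tumors, 1697 to 1927 in OE normal lung and 1999 to 2393 in WT lung. For the heart muscle markers it was 3.11 to 6.06 in OE tumors, 661 to 1596 in OE normal lung and 708 to 1237 in WT lung. Of 10 alveolar type 2 markers 7 rose, with sums, which include the Sftpc values above, of 12978 to 43944 FPKM in OE tumors, 12669 to 17428 in OE normal lung and 15498 to 19291 in WT lung. Of 10 club cell markers 1 rose and 6 fell, while their sums were 2338, 13062 and 17144 FPKM in tumors 1, 2 and 3, against 2829 to 3159 in OE normal lung and 2865 to 2984 in WT lung. The club cell secretoglobin gene Scgb1a1 was listed at 0 in all 4 normal lungs, which can be a failed estimate, and the sums in tumors 2 and 3 came mostly from 1 gene, Bpifa1 (12907 and 15754 FPKM). Markers of hepatocytes, the cells richest in these enzymes, summed to 17.2 to 25.7 FPKM in OE tumors, 7.11 to 19.9 in OE normal lung and 9.68 to 20.0 in WT lung. Of the other lists, against OE normal lung 7 of 10 alveolar type 1 markers fell and 1 rose, 4 of 10 fibroblast, 5 of 6 smooth muscle, 4 of 4 tested mesothelial, 4 of 5 tested adipocyte, 4 of 6 neutrophil, 7 of 7 lymphocyte and 5 of 5 tested erythroid markers fell, and 4 of 11 macrophage markers rose. Of 4 tested hepatocyte markers 1 rose and 1 fell, and 0 of 5 sex-linked genes passed with limma, at 0 with an unadjusted p under 0.05. What part cell composition had in the results below was not tested.

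OE tumors had less mRNA than normal lung for several aldehyde dehydrogenases, carboxylesterases and flavin monooxygenases, and more for microsomal and theta-class glutathione transferases. The retinoic acid-forming Aldh1a1 was 18-fold lower and the carboxylesterase gene Ces2g 21.5-fold lower than in OE normal lung, while the membrane transferase Mgst1 was 2.90-fold higher and Mgst2 3.39-fold higher (ratios of group means, 3 OE tumors and 2 OE normal lungs). In OE tumors against OE normal lung, 8 of the 63 tested detoxification genes rose (13.1% of all genes tested rose) and 23 fell (24.9% of all genes tested fell). Against WT lung 8 rose (15.0% of all genes) and 23 fell (23.2% of all genes). These shares over all genes are the background for the counts by family and list below. The median log2 difference of the tested detoxification genes was -0.30 against OE normal lung and -0.41 against WT lung, beside -0.11 and -0.06 over all genes tested. Of the genes that rose, 7 were shared by both comparisons (Mgst1, Mgst2, Gstt1, Gstt3, Fmo4, Sult2b1 and Hmox1), as were 22 of those that fell. The comparisons share the tumor libraries and are not independent. The split of calls moved with scaling: against OE normal lung 6 rose and 25 fell after rescaling to TPM, and 9 rose and 16 fell after quantile normalization, while over all genes 34.5% of calls were rises as deposited, 18.2% after rescaling to TPM and 53.7% after quantile normalization. Single normal libraries also moved the counts: against OE normal lung 5 rose and 12 fell without OE normal 1, and 5 and 14 without OE normal 2, and against WT lung 5 rose and 16 fell without WT 1, and 4 and 13 without WT 2.

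**Figure D1:**
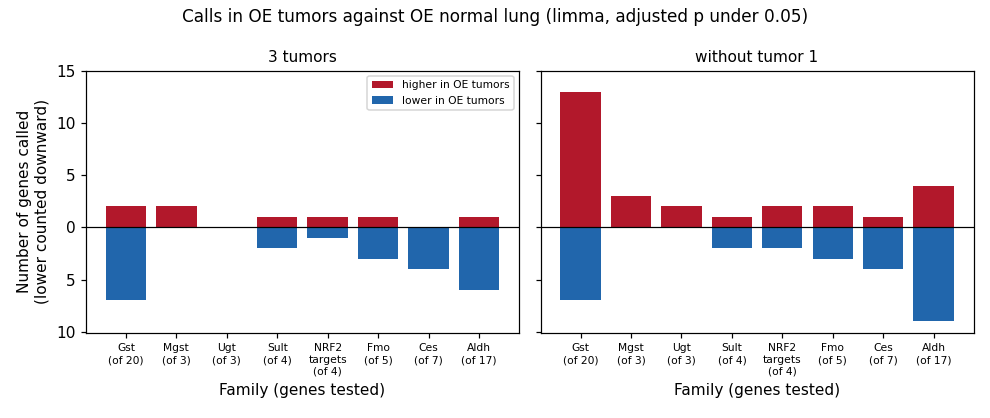
Number of tested detoxification genes that rose or fell in OE tumors by enzyme family against OE normal lung (limma adjusted p under 0.05; rises above the line, falls below it), with 3 tumors at left and without tumor 1 at right. Gst genes show 2 rises and 7 falls with 3 tumors, and 13 and 7 without tumor 1.

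Without tumor 1, 28 rose (26.8% of all genes) and 27 fell (41.9% of all genes) against OE normal lung, and 25 rose (28.5%) and 29 fell (39.0%) against WT lung. All 8 rises and all 23 falls of each comparison were among these. The genes added to the rises against OE normal lung were 20, of which 11 were Gst genes, and 4 were added to the falls. Tumor 1 was more than 2-fold below both other tumors on the FPKM + 1 scale in 20 of the 63 tested detoxification genes (31.7%), against 617 of all 14057 genes tested (4.39%), and more than 2-fold above both in 3 (4.76%, against 7.12% of all genes). Tumors 2 and 3 stood apart from the other tumors in this way in 0 of the 63 genes. Over all genes tested the share was 0.0854% to 0.242%, so this 0 says little about the members. Eif2s3y, high in tumor 1, was also at 27.4 FPKM in OE normal 1 and 0.0903 FPKM in OE normal 2. With sex as a covariate 9 genes rose and 25 fell against OE normal lung. Against WT lung that fit kept 6 of 8 rises and 19 of 23 falls, and added 1 rise and 3 falls. The lost rises were Aldh16a1 and Mgst1, and the lost falls Aldh1b1, Gstm7, Gsto1 and Gsto2. Without tumor 1, 1 of 5 sex-linked genes rose and 4 fell against WT lung, so sex and tumor cannot be told apart there. What part depth, sex or the marker genes above had in the split between tumors was not tested. The heatmap of the tested members shows this division gene by gene.

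**Figure D2:**
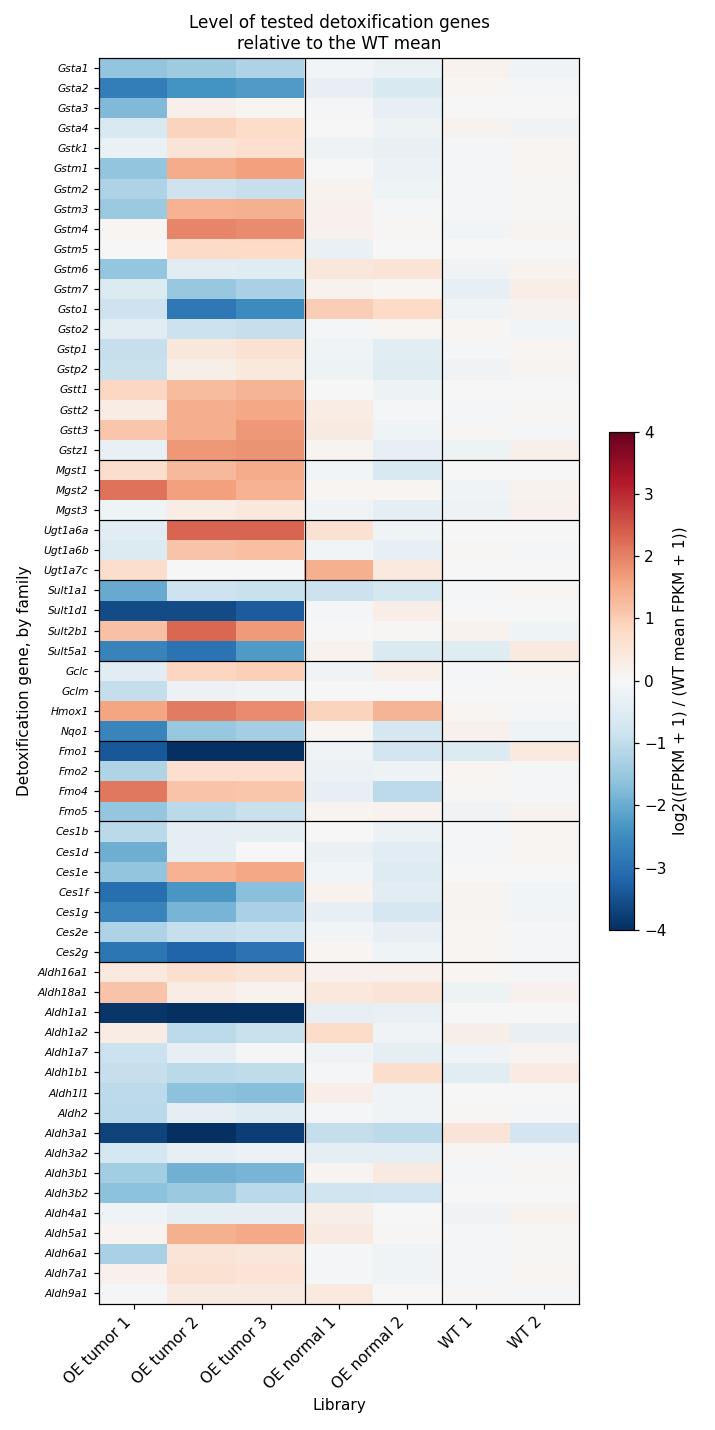
Log2 ratio of FPKM + 1 to the WT mean FPKM + 1 for 62 of the 63 tested detoxification genes (rows, by family) in each of the 7 libraries (columns), with red higher, blue lower, and colours limited at the ends of the scale. Sult1d1 and Aldh1a1 are blue in all 3 tumors, and Gstm1, Gstm3 and Ces1e are blue in tumor 1 and red in tumors 2 and 3.

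The glutathione S-transferases of the Gst classes couple glutathione to electrophiles. Their summed FPKM was the highest of the families in every library other than WT 1. It was 683, 2253 and 2409 in OE tumors, 1270.5 and 1069 in OE normal lung and 1192 and 1287 in WT lung. Tumor 1 lay below the normal lungs and tumors 2 and 3 above them. Of 20 tested, 2 rose and 7 fell in OE tumors against OE normal lung (13 and 7 without tumor 1), with a median log2 difference of 0.38. Against WT lung 2 rose and 6 fell (11 and 7 without tumor 1), with a median of 0.19. Over all genes tested 13.1% rose and 24.9% fell against OE normal lung, and 15.0% and 23.2% against WT lung.

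Of 3 tested theta-class genes 2 rose in OE tumors (of all genes tested 13.1% rose against OE normal lung and 15.0% against WT lung). Gstt1, which acts on small halogenated compounds, was at 115, 158 and 167 FPKM in OE tumors, 63.6 and 56.1 FPKM in OE normal lung and 64.9 and 64.1 FPKM in WT lung. No tumor overlapped the normal lungs, and the means differed 2.44-fold and 2.27-fold (log2 difference 1.26, SE 0.18, limma adjusted p = 0.00333 against OE normal lung, and 1.15 and 0.00474 against WT lung). Gstt3 was at 40.9, 52.7 and 63.6 FPKM in OE tumors, 24.0 and 16.4 FPKM in OE normal lung and 19.2 and 17.9 FPKM in WT lung (log2 difference 1.34, SE 0.23, limma adjusted p = 0.00636 against OE normal lung). Of the 50-base stretches of Gstt3 transcripts, 20.6% also occur in other genes, so reads may be shared. The third tested theta gene, Gstt2, was at 17.3, 39.6 and 42.0 FPKM in OE tumors against 17.1 and 12.9 FPKM in OE normal lung, and passed only without tumor 1 (log2 difference 1.40, limma adjusted p = 5.16e-04, against 1.00 and 0.0863 with it).

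The alpha class split by gene. Gsta2 was at 0.0221, 0.346 and 0.442 FPKM in OE tumors, 4.54 and 3.57 FPKM in OE normal lung and 6.33 and 5.69 FPKM in WT lung, and Gsta1 ran at lower levels with the same order of groups. Both fell (log2 differences -2.0 and -1.22, limma adjusted p = 8.46e-04 and 0.00268 against OE normal lung), but 47.4% of Gsta2 and 89.7% of Gsta1 stretches of 50 bases recur in other genes, so their values are uncertain. The abundant Gsta3, a mouse lung and liver form active on aflatoxin epoxide, was at 41.2, 167 and 153 FPKM in OE tumors, 140.1 and 114 FPKM in OE normal lung and 146 and 142 FPKM in WT lung. Tumor 1 lay below all 4 normal lungs and tumors 2 and 3 above them, and the group difference was -0.30 (SE 0.59, limma adjusted p = 0.709), against 0.34 and 0.049 without tumor 1. Gsta4, which conjugates the lipid aldehyde 4-hydroxynonenal, followed the same order with 51.4, 148 and 131 FPKM in OE tumors against 79.4 and 68.3 FPKM in OE normal lung.

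The mu class, whose genes lie side by side on chromosome 3, included the Gst gene with the widest span among tumors on the log2(FPKM + 1) scale, Gstm1. Gstm1 was at 123, 1043 and 1154 FPKM in OE tumors, 369 and 316 FPKM in OE normal lung and 349 and 395 FPKM in WT lung. In tumors 2 and 3 it was the most abundant of all 110 genes, and in tumor 1 it was below every normal lung. The log2 difference from OE normal lung was 0.63 (SE 0.96, limma adjusted p = 0.629). Without tumor 1 it was 1.68 (limma adjusted p = 2.44e-04). Gstm1 was named also for its span among tumors, so this p-value follows in part from that choice and is no separate support. Gstm3 had the same order, with 3.58, 32.8 and 33.3 FPKM in OE tumors, 13.3 and 11.1 FPKM in OE normal lung and 11.4 and 12.2 FPKM in WT lung. Shared 50-base stretches made up 19.9% of Gstm1 and 28.8% of Gstm3. Their neighbours Gstm2 and Gstm6 went the other way: Gstm2 was at 54.7, 73.8 and 68.8 FPKM in OE tumors, 145 and 115 FPKM in OE normal lung and 126 and 137 FPKM in WT lung, with no overlap between tumors and normal lungs (log2 difference -0.97, SE 0.18, limma adjusted p = 0.00705 against OE normal lung). Without OE normal 1 the Gstm2 call was lost (limma adjusted p = 0.0549). Gstm6 fell against OE normal lung and did not pass against WT lung (log2 differences -1.31 and -0.81, limma adjusted p = 0.031 and 0.121), and the first call was lost under 9 of 18 alternatives.

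**Figure D3:**
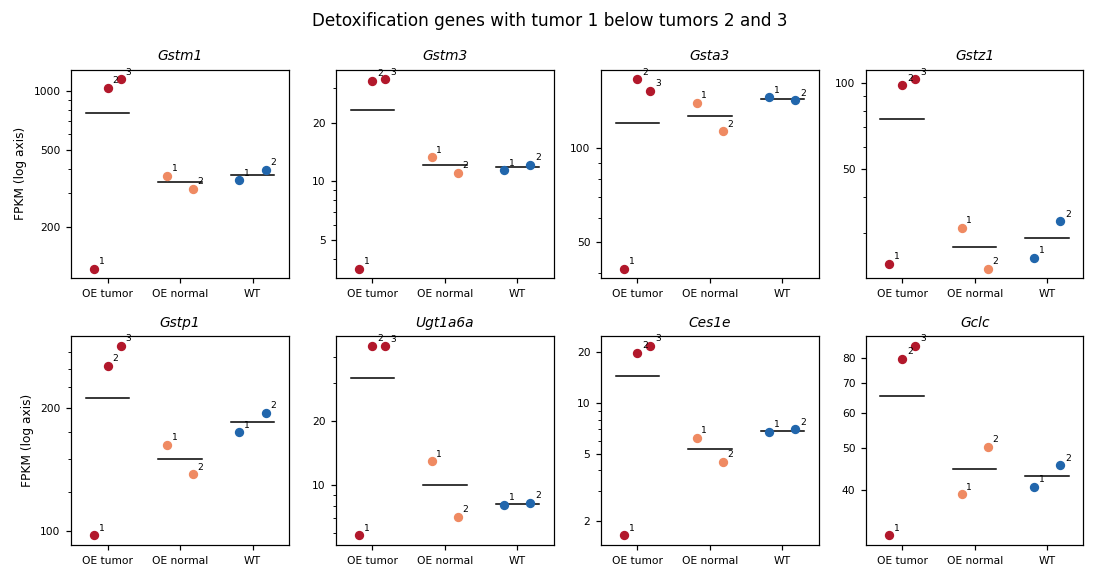
FPKM on a log axis in each library for 8 detoxification genes in which tumor 1 lay more than 2-fold below tumors 2 and 3. Points are libraries numbered by replicate and lines are group means. Tumor 1 lies below the normal lungs for Gstm1 (123 FPKM) and Ces1e (1.64 FPKM), while tumors 2 and 3 lie above them.

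Other classes added to the split. Gstp1, the pi form that is prominent in lung, was at 97.8, 255 and 284 FPKM in OE tumors, 163 and 138 FPKM in OE normal lung and 175 and 195 FPKM in WT lung, and 51.0% of its 50-base stretches recur in other genes, Gstp2 first. Gstz1, which isomerizes maleylacetoacetate in tyrosine breakdown, was at 23.5, 98.0 and 103 FPKM in OE tumors, 31.3 and 22.6 FPKM in OE normal lung and 24.6 and 33.0 FPKM in WT lung. Tumor 1 was within the range of the normal lungs for Gstz1 and tumors 2 and 3 lay above that range. The omega class ran against this pattern. Gsto1, a dehydroascorbate reductase, was at 27.7, 6.13 and 7.86 FPKM in OE tumors, 100.0 and 87.5 FPKM in OE normal lung and 45.6 and 54.9 FPKM in WT lung, so that it was highest in tumor 1 among tumors and still below every normal lung. It fell by 2.95 (SE 0.58, limma adjusted p = 0.00951) against OE normal lung and by 2.07 (limma adjusted p = 0.0333) against WT lung, and the first call was lost without either OE normal lung (limma adjusted p = 0.0651 without OE normal 1 and 0.0568 without OE normal 2). The Gsto1 call against WT lung was lost under 10 of 18 alternatives, among them the omission of either WT lung (limma adjusted p = 0.12 without WT 1 and 0.163 without WT 2). Gstk1, of mitochondria and peroxisomes, was at 33.8, 58.9 and 66.2 FPKM in OE tumors against 35.5 and 33.2 FPKM in OE normal lung.

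Of 3 microsomal glutathione transferases 2 rose in OE tumors against both normal groups (of all genes tested 13.1% rose against OE normal lung and 15.0% against WT lung). The summed FPKM of the family was 641, 895 and 1016 in OE tumors, 359 and 263 in OE normal lung and 376 and 394 in WT lung. Mgst1, a membrane enzyme that conjugates glutathione and reduces lipid peroxides, was at 536, 793 and 917 FPKM in OE tumors, 303 and 213 FPKM in OE normal lung and 324 and 327 FPKM in WT lung. The lowest tumor was above the highest normal lung, and the means differed 2.90-fold and 2.30-fold (log2 difference 1.52, SE 0.27, limma adjusted p = 0.00705 against OE normal lung, and 1.16 and 0.0189 against WT lung). The first call was lost without OE normal 2 (limma adjusted p = 0.0584) and the second without either WT lung (0.103 and 0.104). Mgst2, which can form leukotriene C4, was at 64.5, 44.7 and 37.0 FPKM in OE tumors, 14.3 and 14.4 FPKM in OE normal lung and 12.1 and 15.0 FPKM in WT lung, highest in tumor 1 (log2 difference 1.66, SE 0.24, limma adjusted p = 0.00324 against OE normal lung). Mgst3 did not pass against either group with 3 tumors, with 40.8, 57.4 and 61.9 FPKM in OE tumors against 41.6 and 35.5 FPKM in OE normal lung. Without tumor 1 it rose against OE normal lung (log2 difference 0.62, limma adjusted p = 0.013) and did not pass against WT lung.

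**Figure D4:**
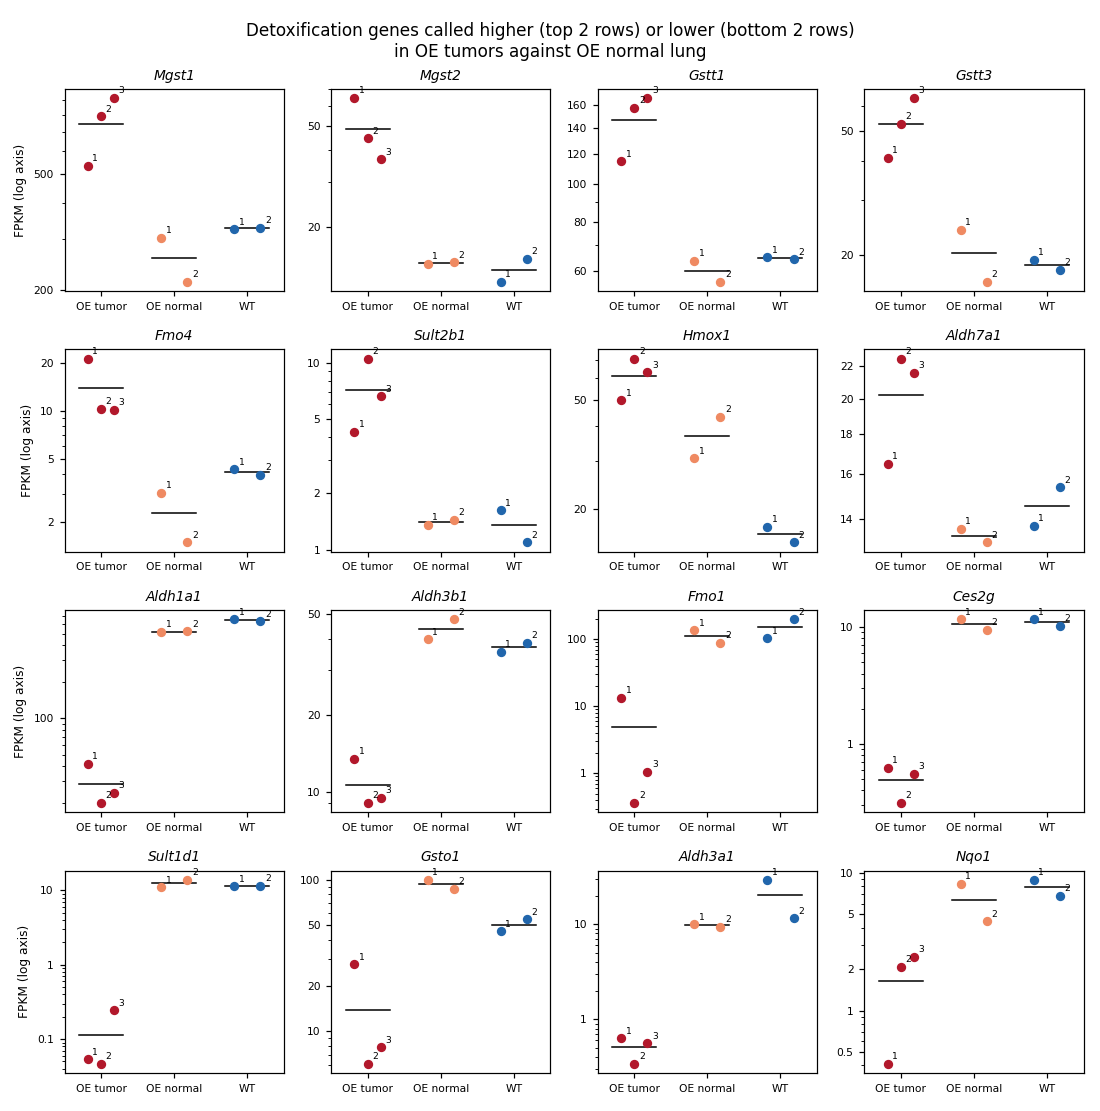
FPKM on a log axis in each library for detoxification genes that rose or fell in OE tumors. Points are libraries numbered by replicate and lines are group means. Every tumor lies above every normal lung for Mgst1 and Mgst2, and every tumor lies below every normal lung for Aldh1a1 and Ces2g.

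The NRF2 target enzymes did not move as a block. Hmox1, which breaks down heme, was at 49.9, 70.7 and 63.0 FPKM in OE tumors, 30.7 and 43.4 FPKM in OE normal lung and 17.2 and 15.1 FPKM in WT lung. The 3 groups did not overlap. It rose in OE tumors against WT lung (log2 difference 1.85, SE 0.21, limma adjusted p = 0.00137) and against OE normal lung (0.72, SE 0.21, limma adjusted p = 0.0394), the second call being lost under 10 of 18 alternatives, among them the omission of OE normal 1 (limma adjusted p = 0.222). Nqo1, a quinone reductase, fell: 0.412, 2.08 and 2.46 FPKM in OE tumors, 8.36 and 4.47 FPKM in OE normal lung and 8.93 and 6.86 FPKM in WT lung, with no overlap between tumors and normal lungs (log2 difference -1.54, SE 0.44, limma adjusted p = 0.0366 against OE normal lung, and -1.84 and 0.0204 against WT lung). The call against OE normal lung was lost under 11 of 18 alternatives (limma adjusted p = 0.208 without OE normal 1), and that against WT lung under 5 (0.12 without WT 1 and 0.0841 without WT 2). Gclc, the catalytic subunit of the enzyme that makes glutathione, was at 31.6, 79.8 and 85.3 FPKM in OE tumors, 39.1 and 50.2 FPKM in OE normal lung and 40.7 and 45.5 FPKM in WT lung, passing only without tumor 1 (log2 difference 0.88, limma adjusted p = 0.00258 against OE normal lung). Its regulatory partner Gclm was at 10.8, 18.4 and 19.6 FPKM in OE tumors, 21.8 and 22.2 FPKM in OE normal lung and 22.2 and 21.3 FPKM in WT lung, all tumors below all normal lungs (log2 difference -0.46, limma adjusted p = 0.198 against OE normal lung, and -0.20 and 0.0488 without tumor 1, when it passed as a fall).

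The antioxidant response element, searched as TGACNNNGC on both strands of 300 bases around each annotated start (250 before and 50 after), was found in 12.4% of all 32851 RefSeq mouse promoters of 27025 genes, and in 6.8% of the 103 promoters that matched 88 of the 110 detoxification genes. Over the 64 promoters of the tested members it was 10.9%. The members with a match were Aldh1a2, Aldh9a1, Gclm, Gsta3, Gstm5, Gstm7 and Mgst1. Of the NRF2 target enzymes, Nqo1 was searched and had no match within these 300 bases. Sequence further from the starts was not searched for any gene. Hmox1 and Gclc were not among the 88 matched genes and were not searched. A match describes the letters only. The xenobiotic response element core GCGTG, bound by the aryl hydrocarbon receptor, was in 32.4% of all promoters and 19.4% of those of the members, with 26.6% over the tested members. Mgst1 holds the antioxidant response element at the start shown and not at the other listed start. Promoters of 3 members are shown because their genes behaved differently in OE tumors: Mgst1 was higher in every tumor, Gsta3 was split between tumors, and Gclm lay below the normal lungs in every tumor. Capitals mark the element, and sequences are from RefSeq on build GRCm38.p6, plus strand, at chr6:138140277-138140576 (Mgst1), chr1:21240335-21240634 (Gsta3) and chr3:122245307-122245606 (Gclm).
Mgst1: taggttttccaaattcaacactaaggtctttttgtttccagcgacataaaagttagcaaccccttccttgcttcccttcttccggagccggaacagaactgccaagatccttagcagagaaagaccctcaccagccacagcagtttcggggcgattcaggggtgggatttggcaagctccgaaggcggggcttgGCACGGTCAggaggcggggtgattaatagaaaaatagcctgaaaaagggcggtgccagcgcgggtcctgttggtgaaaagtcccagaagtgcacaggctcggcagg
Gsta3: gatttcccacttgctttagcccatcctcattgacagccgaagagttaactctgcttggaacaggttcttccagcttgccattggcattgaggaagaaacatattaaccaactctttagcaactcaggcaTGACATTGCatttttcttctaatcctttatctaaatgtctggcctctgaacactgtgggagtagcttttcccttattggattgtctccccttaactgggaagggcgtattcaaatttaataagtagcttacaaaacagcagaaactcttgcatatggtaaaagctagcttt
Gclm: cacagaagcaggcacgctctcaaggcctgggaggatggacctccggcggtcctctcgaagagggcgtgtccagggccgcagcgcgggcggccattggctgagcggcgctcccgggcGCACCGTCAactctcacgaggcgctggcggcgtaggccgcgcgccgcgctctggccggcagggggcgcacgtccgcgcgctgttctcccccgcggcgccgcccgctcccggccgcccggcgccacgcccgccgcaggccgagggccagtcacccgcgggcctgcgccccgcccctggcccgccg
In Gsta3 the element reads on the strand of the gene, and in Mgst1 and Gclm on the opposite strand, where the capitals show its reverse complement.

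The other NRF2 pathway genes, 24 that are not members, gave 6 rises and 1 fall in OE tumors against OE normal lung, with a median log2 difference of 0.34. Against WT lung they gave 7 rises and 4 falls, with a median of 0.25. Over all genes tested 13.1% rose and 24.9% fell against OE normal lung, and 15.0% and 23.2% against WT lung. Akr1b8, an aldo-keto reductase, was at 42.9, 122 and 135 FPKM in OE tumors, 26 and 18.2 FPKM in OE normal lung and 17.9 and 17.5 FPKM in WT lung (log2 difference 1.99 against OE normal lung, limma adjusted p = 0.0228). The Akr1b8 call was lost under 6 of 18 alternatives, among them the omission of either OE normal lung (limma adjusted p = 0.0779 without OE normal 1 and 0.138 without OE normal 2). Me1, the NADPH-forming malic enzyme, was at 95.9, 93.4 and 91.8 FPKM in OE tumors, 26.7 and 21.1 FPKM in OE normal lung and 24.1 and 24.6 FPKM in WT lung, with tumors close together (log2 difference 1.94, limma adjusted p = 3.10e-04). The dimer partner Mafk fell (log2 difference -0.93, limma adjusted p = 0.00609, and 0.0532 without OE normal 2). Nfe2l2 itself, named here for its role after its values were seen, was at 93.8, 139 and 131 FPKM in OE tumors, 66.6 and 67.7 FPKM in OE normal lung and 72.4 and 69.7 FPKM in WT lung, and rose (log2 difference 0.82, SE 0.18, limma adjusted p = 0.016 against OE normal lung, and 0.74 and 0.0231 against WT lung).

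Glucuronosyltransferases, which attach glucuronic acid to phenols, steroids and bilirubin, were little expressed. Of 21 genes 18 were below the minimum and 3 of the Ugt1 family were tested. In the limma fit of the values as deposited, without covariates, 0 of these passed in any comparison, at 0 with an unadjusted p under 0.05. With sex as a covariate 1 of them, Ugt1a7c, fell against OE normal lung and rose against WT lung. Ugt1a7c was at 2.32 FPKM in tumor 1 and at a mean of 1.06 FPKM in tumors 2 and 3. Ugt1a6a was at 5.82, 44.9 and 44.7 FPKM in OE tumors, 12.9 and 7.11 FPKM in OE normal lung and 8.09 and 8.25 FPKM in WT lung, and Ugt1a6b, its neighbour, at 9.30, 32.2 and 33.7 FPKM in OE tumors against 12.9 and 11.1 FPKM in OE normal lung. Tumors 2 and 3 were above every normal lung for both genes and tumor 1 was below them. Without tumor 1 both passed (log2 differences 2.11 and 1.39, limma adjusted p = 9.62e-04 and 1.91e-04 against OE normal lung). Ugt1a6a was named also for its span among tumors, so its p-value here follows in part from that choice. Genes of the Ugt1 locus share their last exons, and 96.0% of Ugt1a6a and 79.8% of Ugt1a6b stretches of 50 bases recur elsewhere, so which isoform gave the reads is uncertain. Ugt2 genes summed to at most 0.565 FPKM in any library.

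Sulfotransferases transfer sulfate to phenols, catecholamines and steroids, and 4 of 17 were tested. Sult1d1, which acts on catecholamines in the mouse, was at 0.0537, 0.0468 and 0.243 FPKM in OE tumors, 11 and 13.9 FPKM in OE normal lung and 11.4 and 11.5 FPKM in WT lung. The tumors lay near 0 and the normal lungs close together (log2 difference -3.59, SE 0.16, limma adjusted p = 2.30e-04 against OE normal lung, and -3.49 and 1.63e-04 against WT lung). Sult5a1 also fell, with 0.638, 0.337 and 1.17 FPKM in OE tumors against 10.6 and 6.02 FPKM in OE normal lung. Sult2b1, which sulfates cholesterol, rose: 4.27, 10.6 and 6.62 FPKM in OE tumors, 1.36 and 1.44 FPKM in OE normal lung and 1.62 and 1.09 FPKM in WT lung (log2 difference 1.69, SE 0.33, limma adjusted p = 0.0093 against OE normal lung, lost without either OE normal lung at 0.0617 and 0.0585). Sult1a1, the main phenol sulfotransferase, was at 11.4, 27.2 and 26.3 FPKM in OE tumors, 26.8 and 30.3 FPKM in OE normal lung and 47.1 and 51.7 FPKM in WT lung. It fell against WT lung (log2 difference -1.25, limma adjusted p = 0.0392) and not against OE normal lung (-0.48, limma adjusted p = 0.34). The call against WT lung was lost under 7 of 18 alternatives, among them median-of-ratios scaling (limma adjusted p = 0.0734) and the omission of either WT lung (0.14 without WT 1 and 0.179 without WT 2).

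Flavin-containing monooxygenases, which oxidize nitrogen and sulfur in drugs and amines, lie mostly in a cluster on chromosome 1 and differed in direction within it. Fmo1 was at 13.4, 0.362 and 1.06 FPKM in OE tumors, 135 and 88.3 FPKM in OE normal lung and 102 and 198 FPKM in WT lung. Every tumor was below every normal lung, with tumor 1 highest among tumors (log2 difference -5.01, SE 0.99, limma adjusted p = 0.0102 against OE normal lung, lost without either OE normal lung at 0.0725 and 0.0542). Fmo5 fell as well, with 1.74, 2.78 and 3.33 FPKM in OE tumors against 7.64 and 7.95 FPKM in OE normal lung. Fmo4 rose: 21.3, 10.3 and 10.2 FPKM in OE tumors, 3.06 and 1.49 FPKM in OE normal lung and 4.29 and 3.97 FPKM in WT lung (log2 difference 2.15, SE 0.37, limma adjusted p = 0.00582 against OE normal lung). Fmo2, the main lung form in mice, was at 114, 419 and 426 FPKM in OE tumors, 225 and 228 FPKM in OE normal lung and 278 and 253 FPKM in WT lung, so that tumor 1 was below and tumors 2 and 3 above all normal lungs (log2 difference 0.27, limma adjusted p = 0.739, and 0.89 and 4.70e-04 without tumor 1).

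Carboxylesterases hydrolyze ester drugs and lipids, and 4 of 7 tested fell in OE tumors against each normal group. Over all genes tested 24.9% fell against OE normal lung and 23.2% against WT lung. Ces2g was at 0.621, 0.311 and 0.552 FPKM in OE tumors, 11.7 and 9.54 FPKM in OE normal lung and 11.7 and 10.2 FPKM in WT lung, with the groups far apart (log2 difference -2.96, SE 0.16, limma adjusted p = 2.86e-04 against OE normal lung). Ces1f was at 0.230, 0.981 and 2.08 FPKM in OE tumors against 9.81 and 6.27 FPKM in OE normal lung, and Ces1g at 0.385, 1.37 and 2.49 FPKM against 5.90 and 4.40 FPKM. The Ces1f call was lost without OE normal 1 (limma adjusted p = 0.0596), and that of Ces1g under 9 of 18 alternatives. Ces1d, the lipid hydrolase that held most of the family's FPKM, was at 101, 308 and 388 FPKM in OE tumors, 326 and 294 FPKM in OE normal lung and 374 and 417 FPKM in WT lung, low in tumor 1 alone (log2 difference -0.43, SE 0.55, limma adjusted p = 0.565). Ces1e was at 1.64, 19.9 and 21.9 FPKM in OE tumors, 6.24 and 4.49 FPKM in OE normal lung and 6.77 and 6.99 FPKM in WT lung, a span among tumors near that of Gstm1. It passed without tumor 1 (log2 difference 1.79, limma adjusted p = 3.06e-04 against OE normal lung). Ces1e was named for this span, so that p-value follows in part from the choice.

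Aldehyde dehydrogenases, which turn aldehydes into acids, had a lower summed level in every tumor: 335, 448 and 449 FPKM in OE tumors, 1036 and 1013 FPKM in OE normal lung and 1208 and 1166 FPKM in WT lung. Of 17 tested, 1 rose and 6 fell against each normal group (4 and 9 without tumor 1 against OE normal lung). The rise was Aldh7a1 against OE normal lung and Aldh16a1 against WT lung. Over all genes tested 13.1% rose and 24.9% fell against OE normal lung, and 15.0% and 23.2% against WT lung. The largest part of the summed difference was Aldh1a1, which makes retinoic acid from retinaldehyde and was at 42.0, 19.9 and 24.2 FPKM in OE tumors, 516 and 519 FPKM in OE normal lung and 657 and 629 FPKM in WT lung. No tumor came near a normal lung, and the means were 18-fold lower than in OE normal lung and 22.4-fold lower than in WT lung (log2 difference -4.20, SE 0.30, limma adjusted p = 3.53e-04, and -4.51 and 2.72e-04). Its neighbour on chromosome 19, Aldh1a7, was at 36.6, 52.8 and 63.4 FPKM in OE tumors against 60.4 and 51.4 FPKM in OE normal lung, which overlap (log2 difference -0.16, limma adjusted p = 0.623). Aldh3a1, which clears lipid and aromatic aldehydes, was at 0.631, 0.342 and 0.562 FPKM in OE tumors, 10.0 and 9.44 FPKM in OE normal lung and 29.3 and 11.5 FPKM in WT lung (log2 difference -2.83, SE 0.36, limma adjusted p = 0.00202 against OE normal lung). Aldh3b1 fell by 1.95 (limma adjusted p = 8.47e-04), with 13.5, 9.02 and 9.48 FPKM in OE tumors against 39.8 and 47.7 FPKM in OE normal lung. Aldh1b1, Aldh1l1 and Aldh3b2 also fell in both comparisons, at levels up to 5.42 FPKM, with the Aldh3b2 call against OE normal lung lost under 10 of 18 alternatives and the Aldh1b1 call against WT lung under 8.

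**Figure D5:**
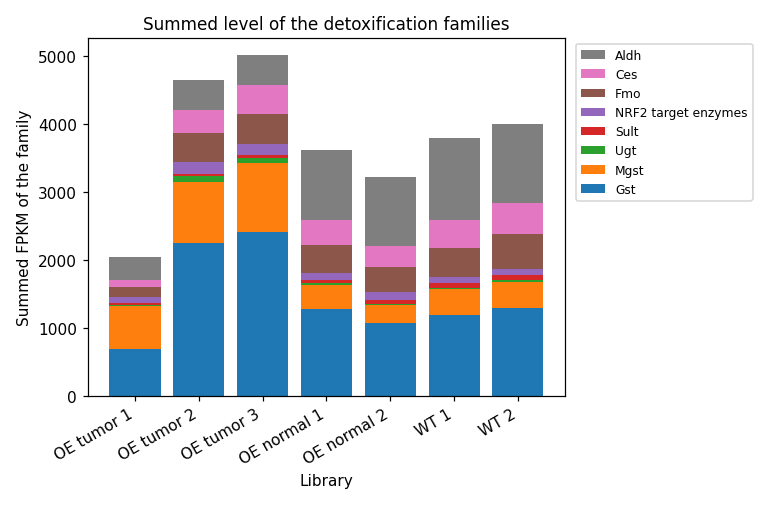
Stacked bars of summed FPKM by enzyme family in each library, with OE tumors left of OE normal lung and WT lung. Aldh sums are 335 to 449 FPKM in OE tumors and at least 1013 FPKM in normal lungs, while the Gst sum of tumor 1 is 683 FPKM and those of tumors 2 and 3 are 2253 and 2409 FPKM.

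Mitochondrial and amino acid aldehyde dehydrogenases differed less. Aldh2, which oxidizes acetaldehyde, was at 130.5, 209 and 195 FPKM in OE tumors, 261 and 251 FPKM in OE normal lung and 284 and 270.3 FPKM in WT lung, every tumor below every normal lung, with log2 differences of -0.55 and -0.66 that did not pass (limma adjusted p = 0.0952 and 0.057). Without tumor 1 Aldh2 fell against both groups (limma adjusted p = 0.0136 and 0.00486), and against OE normal lung it also passed under 4 other alternatives. Aldh7a1, of lysine breakdown, rose against OE normal lung (16.5, 22.5 and 21.6 FPKM in OE tumors, 13.6 and 13.1 FPKM in OE normal lung, a log2 difference of 0.55, limma adjusted p = 0.038), a call lost under 11 of 18 alternatives. Aldh16a1 rose against WT lung (12.0, 14.6 and 13.3 FPKM in OE tumors, 9.52 and 8.53 FPKM in WT lung, log2 difference 0.51, limma adjusted p = 0.0236), a call lost under 8 of 18 alternatives (limma adjusted p = 0.0923 without WT 1 and 0.173 without WT 2). Aldh6a1, of valine breakdown, was at 11.6, 43.2 and 41.9 FPKM in OE tumors against 29.3 and 27.1 FPKM in OE normal lung, again low in tumor 1. Aldh5a1, the succinic semialdehyde dehydrogenase, was at 2.63, 7.83 and 8.52 FPKM in OE tumors against 3.24 and 2.46 FPKM in OE normal lung. Differences of Aldh3a2, Aldh4a1, Aldh9a1 and Aldh18a1 from OE normal lung did not pass and lay between -0.41 and 0.06. Aldh4a1 passed as a fall without tumor 1 (-0.49, limma adjusted p = 0.0202), after rescaling to TPM (-0.66 and 0.0197) and without small RNA genes (-0.54 and 0.0341).

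Genes that serve these enzymes were described by list. Over all genes tested 13.1% rose and 24.9% fell in OE tumors against OE normal lung. Of 14 genes listed for cofactor synthesis, 2 rose and 2 fell in OE tumors against OE normal lung (median log2 difference 0.13). The list also holds genes that make no cofactor, such as Por, and the 2 falls were Cbs and Por. Por, the reductase that passes electrons to cytochromes P450, fell, with 38.5, 47.7 and 46.0 FPKM in OE tumors, 135 and 115 FPKM in OE normal lung and 133 and 139 FPKM in WT lung (log2 difference -1.49, limma adjusted p = 7.50e-04), and Ugp2, which makes UDP-glucose, rose (0.95, limma adjusted p = 0.0102, lost without either OE normal lung at 0.063 and 0.0645). Of 10 tested genes listed as transporters of conjugates 1 rose and 5 fell (median -1.10). This list also holds genes that are not exporters of conjugates, such as Slco genes. The falls included Abcc1, a glutathione conjugate pump, at 3.25, 1.49 and 1.57 FPKM in OE tumors, 10.3 and 9.27 FPKM in OE normal lung and 8.36 and 8.97 FPKM in WT lung (log2 difference -1.84, limma adjusted p = 0.00273). The drug efflux gene Abcb1a fell too (-2.34, limma adjusted p = 0.00249). Of 9 tested xenobiotic and retinoid receptors 4 fell (median -0.25), with the retinoic acid receptor Rarb at 0.401, 0.426 and 0.360 FPKM in OE tumors against 3.73 and 7.11 FPKM in OE normal lung. Of 8 tested genes of retinoid metabolism 5 fell (median -1.48), among them Lrat, which stores retinol as esters (log2 difference -3.49, limma adjusted p = 0.00238). Lrat, Rarb and Aldh1a1 lay below every normal lung in every tumor.

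Of 19 other tested conjugating and reducing enzymes, 2 rose and 5 fell against OE normal lung (median -0.02). Over all genes tested 13.1% rose and 24.9% fell. Cbr2, the lung carbonyl reductase, was at 150.1, 253 and 422 FPKM in OE tumors, 4417 and 3392 FPKM in OE normal lung and 4905 and 5212 FPKM in WT lung (log2 difference -3.93, limma adjusted p = 0.00119). Inmt, an indole N-methyltransferase, was at 89.8, 19.1 and 25.5 FPKM in OE tumors, 1118 and 1105 FPKM in OE normal lung and 1575 and 1459 FPKM in WT lung (-4.93, limma adjusted p = 0.00188). Of 17 antioxidant enzymes 5 rose and 2 fell (median 0.29). Cat, the catalase gene, was at 255, 371 and 363 FPKM in OE tumors, 119 and 87.3 FPKM in OE normal lung and 100.4 and 107 FPKM in WT lung (1.66, limma adjusted p = 0.00244), while the secreted enzymes Sod3 and Gpx3 fell (-2.39 and -1.74, limma adjusted p = 0.0301 and 0.0139). Without either OE normal lung both calls were lost, Sod3 at limma adjusted p = 0.141 and 0.124 and Gpx3 at 0.0878 and 0.0687, and that of Sod3 was lost under 9 of 18 alternatives in all.

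Lastly, OE normal lung was compared with WT lung to ask whether EZH2 overexpression without a tumor moved these enzymes. With limma 0 of the 63 tested genes rose (0.00% of all genes) and 0 fell (0.00% of all genes), while 2 had an unadjusted p under 0.05 (Hmox1 and Aldh3b2), as had 1208 of the 14057 genes. Their median log2 difference was -0.11, beside 0.02 over all genes tested. Hmox1 was 2.29-fold higher in OE normal lung than in WT lung (log2 difference 1.13, SE 0.23, limma adjusted p = 0.231). Without tumor 1 in the shared estimate of the spread, Hmox1 rose (limma adjusted p = 0.0492) and Sult1a1 fell (log2 difference -0.77, limma adjusted p = 0.0422), with 1.53% of all genes rising and 0.630% falling. Aldh3a1 was at 10.0 and 9.44 FPKM in OE normal lung and 29.3 and 11.5 FPKM in WT lung (log2 difference -0.86, limma adjusted p = 0.644), and Gsta2 at 4.54 and 3.57 FPKM against 6.33 and 5.69 FPKM (-0.48, limma adjusted p = 0.631). The median SE of a log2 difference between these groups was 0.21 over all genes tested.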

How the data were processed

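RNA sequencing of mouse lung was analysed in 7 libraries grouped by their labels (3 OE tumors, 2 OE normal lungs, 2 WT lungs). The authors deposited FPKM per gene symbol, and the submitters' processing notes name TopHat2, TopHat, Cufflinks 2.0.0 and the build mm9. Annotation, strand setting, read length and read totals: not given in the sources used here. Cufflinks and the values themselves gave the unit. Each file held 22474 rows, of which 27 carried a date in place of a symbol and were left out. No coordinates of mm9 were used.

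Values were taken as log2(FPKM + 1) without further scaling. The fit used genes that reached 1 FPKM in 2 or more libraries, limma 3.58.1 under R 4.3.3, a mean-variance trend in eBayes and 2-sided p-values adjusted by Benjamini-Hochberg (threshold 0.05), with 1 estimate of the spread for the 3 groups; it was tested on simulated data. FPKM summed to 405166 to 503550 per library, with 5.80% to 16.7% in small RNA genes, and depth was compared only through the spacing of low values. Without counts, no counting interval is given. Detoxification genes held 0.406% to 1.08% of FPKM. Members, the 7 pathway lists, the 16 marker lists and the rule for named genes were chosen with earlier results of these data known. The rule named Ezh2, the 4 NRF2 target enzymes, the most abundant member of each family, up to 4 called members per direction and family with at least 5 FPKM, the 5 members nearest a call between OE normal and WT lung, the 8 with the widest span among tumors, and up to 3 called genes per pathway list. Same-numbered libraries did not deviate together (correlations -0.029 to 0.034), so numbers were not used as pairs. Alternatives changed the pseudocount (0.1), the filter (none, or 5 FPKM), the scaling (median of ratios, TPM, quantile), the trend (none), the samples fitted (only the compared groups, or each library omitted in turn) or added a replicate block; sex as a covariate and omission of small RNA genes were chosen after seeing the data. Symbols of all 110 members matched RefSeq. Shared sequence was counted as 50-base stretches of reference transcripts found in another gene, and exceeded 10% in 32 members. Values of 1 member are not reported here. Scripts ran in Python 3.11.15.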

Additional observations from a re-analysis of the deposited data

How the results depend on the processing

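No detoxification gene that passed changed direction under any alternative run. Of the calls in OE tumors against OE normal lung, 4 of 8 rises and 11 of 23 falls passed under each of the 18 alternatives that tested them. Against WT lung the same held for 4 of 8 rises and 12 of 23 falls. Counted among the falls of both comparisons, Aldh1l1 and Gsta1 were not tested with the filter at 5 FPKM. Nor was Aldh3b2, counted among the falls against WT lung. The filter at 5 FPKM left 15 falls against OE normal lung, because 8 of the 23 were then not tested. Leaving out each library in turn gave 5 to 28 rises and 12 to 27 falls against OE normal lung, 4 to 25 rises and 13 to 29 falls against WT lung, and 0 to 1 rise and 0 to 1 fall for OE normal against WT lung; the high ends are without tumor 1. With the replicate block, which the check of the numbers does not support as pairing, 6 rose and 19 fell against OE normal lung and 6 and 18 against WT lung, with 0 calls between OE normal and WT lung. The all-gene median log2 difference against OE normal lung was -0.11 as deposited, 0.05 after median-of-ratios scaling, -0.33 after rescaling to TPM and 0.11 after quantile normalization.

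Differences from OE normal lung that changed sign all belonged to genes that had not passed in the main fit, and the cause was not tested. With the sign changed, Aldh6a1 and Gsta3 passed as rises without tumor 1 (log2 differences 0.58 and 0.34, limma adjusted p = 0.00183 and 0.049). Aldh18a1 (0.06) was -0.15 after rescaling to TPM, -0.057 without small RNA genes and -0.25 to 0.26 over single omissions. Aldh9a1 (0.00) was -0.22 after TPM, -0.072 with the replicate block, -0.014 with the sex covariate, -0.13 without small RNA genes and -0.18 to 0.19 over single omissions. After median-of-ratios scaling Aldh3a2 was 0.12 and Aldh6a1 0.16, with -0.15 to 0.077 and -0.33 to 0.58 over single omissions. With the replicate block Fmo2 was -0.053 and Gstm3 -0.080, with -0.053 to 0.89 and -0.080 to 1.37 over single omissions. Ces1d ran from -0.81 to 0.16 and Gsta3 from -0.66 to 0.34 over single omissions. Where an omission left 1 library in a group, that library was assumed to vary like the others. Depth limits low genes, and counts behind each FPKM are not known.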

Other observations

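The detoxification genes left untested were 47, and the highest value among them in any library was 1.502 FPKM (Ugt8a in tumor 2). They were 18 of 21 Ugt genes, 13 of 17 Sult genes, 10 of 17 Ces genes, Fmo6, Fmo9, Gstt4, Aldh1a3, Aldh1l2 and Aldh8a1, and Fmo9, Sult3a1 and Ugt2b38 were listed at 0 in all 7 libraries. At least 1 FPKM was reached by 48, 49 and 52 of the 110 genes in tumors 1, 2 and 3, 62 and 64 in OE normal lung and 63 and 62 in WT lung.

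Genes that sit next to each other differed in direction within OE tumors. In the Gstm cluster on chromosome 3, Gstm2, Gstm6 and Gstm7 fell against OE normal lung while Gstm1, Gstm3 and Gstm4 passed upward only without tumor 1. Gstm5 passed upward without tumor 1 and with sex as a covariate. In the Fmo cluster on chromosome 1, Fmo1 fell and Fmo4 rose. The Gstm6 and Gstm7 calls were lost under 9 and 7 of 18 alternatives. These statements describe the calls given above and were not tested as a property of the clusters.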
